A study of Mus musculus with 11 samples.

Results

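Each T-cell builds its antigen receptor by joining 1 variable segment per chain to joining and constant parts, so the variable segments of the alpha, beta, gamma and delta loci were read here as the receptor genes that can differ between T-cell populations. The segments were taken as the genes of the array whose single symbol starts with Trav, Trbv, Trdv or Trgv, which gave 9 of 19937 genes with a single symbol. These were 6 alpha segments (Trav7d-4, Trav7n-5, Trav12-2, Trav13-5, Trav14-1 and Trav19), 1 beta segment (Trbv1), 1 delta segment (Trdv2-2) and 1 gamma segment (Trgv1). The value of each leukemia array was read against the highest wild-type array.

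Expression was measured on Mouse Gene 1.0 ST arrays from Affymetrix in splenic T-cells. The 5 exponential-phase arrays came from Lckpr-TCL1A+/- mice of 15 months on average with over 80% tumor cells in blood and over 90% in spleen, and the 3 chronic-phase arrays from mice of the same genotype of 12 months on average with 30 to 70% tumor cells. The 3 wild-type arrays came from age-matched C57BL/6 mice, each a pool of 3 mice. The transgene drives human TCL1A from the proximal Lck promoter, which is active from the thymus onwards. By their labels CD8+ T-cells were enriched for the leukemia arrays, and pan-T-cells were purified by CD3 for wild type, so genotype, cell selection and pooling cannot be told apart in any comparison with wild type. The sources used here do not say whether each leukemia array was 1 mouse.

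A polyclonal T-cell population uses many segments of each locus, each in a small part of its cells, whereas all cells of a clone share the same rearranged chains. A T-cell can carry a rearrangement on both copies of a locus, and T-cells with an alpha-beta receptor can also keep rearranged gamma genes. A variable segment is transcribed from its own promoter, strongly once the rearrangement has brought it near the enhancers beside the constant gene.

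Over all rows, pairs of arrays within a group correlated at 0.944 to 0.969 (exponential phase), 0.944 to 0.962 (chronic phase) and 0.950 to 0.965 (wild type). Exponential array 4 went against its label, with the coreceptor gene Cd8a at 2.96 (log2 signal) where the other exponential arrays lay between 7.94 and 8.20, and with Cd4 at 5.18 where the others lay between 2.15 and 2.44. The median of the 5 myeloid markers was 3.51 to 6.36 in the exponential arrays, highest in array 4, and 2.13 to 2.18 in the chronic arrays, against 1.99 to 2.25 in wild type. Of the 4 erythroid markers 1, the carbonic anhydrase gene Car1, had a row with a single symbol. It was at 1.82 to 5.29 in the exponential arrays, highest in array 4, and at 2.27, 9.27 and 7.63 in the chronic arrays, against 8.53 to 9.79 in wild type, and was called lower in the exponential phase (limma, difference of -6.11 log2 units, SE 0.71, adjusted p = 0.0114), though not without wild-type array 2 (adjusted p = 0.0541) or 3 (0.0554). The part of these markers in the results below was not tested. In these bulk samples fewer cells of a type and less RNA per cell cannot be told apart.

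Trav19, an alpha segment, had log2 signals of 2.03, 8.63, 2.09, 1.85 and 1.96 in exponential arrays 1 to 5 and of 1.83, 1.94 and 2.09 in the chronic arrays, against 2.65, 2.35 and 2.94 in wild type. Exponential array 2 exceeded the highest wild-type array 51.5-fold. All other leukemia arrays lay below every wild-type array, so that Trav19 was above the median of all rows, 2.30, in wild type and below it in these 7 arrays.

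Trbv1, the beta segment, showed the same form in another leukemia. Its log2 signals were 2.96, 3.03, 2.97, 3.05 and 8.10 in exponential arrays 1 to 5 and 3.01, 2.78 and 2.96 in the chronic arrays, against 4.23, 3.99 and 3.81 in wild type. Exponential array 5 exceeded the highest wild-type array 14.6-fold. The other 7 leukemia arrays lay below every wild-type array and within 0.28 log2 units of each other.

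Trgv1, the gamma segment, had log2 signals of 2.52, 2.75, 1.89, 9.31 and 1.89 in the exponential arrays and of 3.01, 3.39 and 5.52 in the chronic arrays, against 5.01, 5.50 and 5.51 in wild type. Exponential array 4, the array with low Cd8a, exceeded the highest wild-type array 13.9-fold, and chronic array 3 lay level with it. The other 6 leukemia arrays lay below every wild-type array, with the 4 remaining exponential arrays at least 4-fold below.

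**Figure D1:**
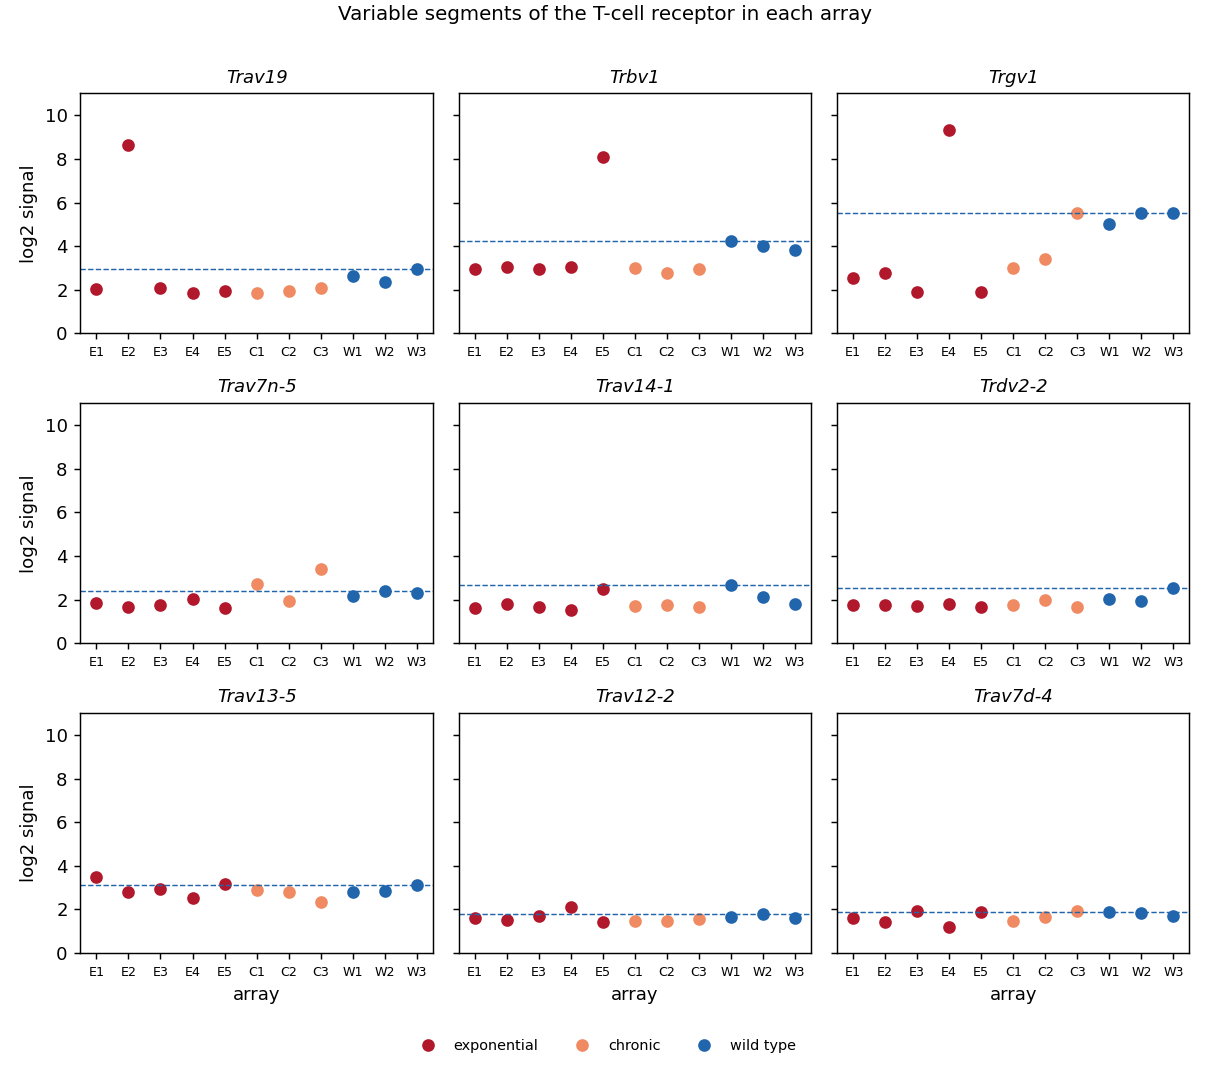
Log2 signal (y axis) of the 9 variable segments in each array (x axis: E, exponential phase; C, chronic phase; W, wild-type pools), 1 point per array, with a dashed line at the highest wild-type array. Trav19 stands out in E2 at 8.63, Trbv1 in E5 at 8.10 and Trgv1 in E4 at 9.31, while the other 6 segments stay below 3.5 in every array.

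Across all segments and leukemia arrays, 3 of 72 values exceeded the highest wild-type array 4-fold or more, each of another segment in another exponential array. The 3 segments compare with 0.612% of all genes that crossed the same line in any leukemia array (122 genes, of which 91 did so in exactly 1 array). Array 4 had the most such genes, 68, and the other leukemia arrays had 10 to 24. At least 4-fold below the lowest wild-type array lay 4 of 72 values, all of Trgv1 in exponential arrays 1, 2, 3 and 5, beside 0.562% of all genes that crossed this line in any leukemia array. When each wild-type array was read in the same way against the other two, no segment crossed either line, and the farthest lay 0.53 log2 units above.

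For 3 segments the spread within the exponential phase was among the widest of all genes. Trgv1 spanned 7.42 log2 units over the 5 arrays, Trav19 6.78 and Trbv1 5.14, whereas the median gene spanned 0.42. At least as wide were 0.00502% of genes for Trgv1, 0.0251% for Trav19 and 0.1% for Trbv1. In the chronic phase Trgv1 spanned 2.51 log2 units over 3 arrays, where the median gene spanned 0.33, and 0.371% of genes were at least as wide. For Trav7n-5 this share was 1.81%. No segment spanned more than 0.89 log2 units in wild type.

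The other 6 segments had narrower ranges. Trav7n-5, one of several near-identical copies that a duplication left in the mouse alpha locus, had log2 signals of 1.85, 1.68, 1.73, 2.00 and 1.60 in the exponential arrays and 2.71, 1.92 and 3.42 in the chronic arrays, against 2.19, 2.39 and 2.32 in wild type. All 5 exponential arrays lay below every wild-type array, and chronic array 3 lay 2.04-fold above the highest. Probes can match several such copies, so the row may carry signal of more than its named segment.

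Trdv2-2, a delta segment that lies within the alpha locus, had log2 signals of 1.66 to 1.79 in the exponential arrays (median 1.73) and of 1.74, 1.97 and 1.66 in the chronic arrays, against 2.03, 1.94 and 2.55 in wild type. Of the 8 leukemia arrays 7 lay below every wild-type array, with chronic array 2 within the wild-type range. Trav14-1 lay between 1.51 and 2.49 in the exponential arrays and between 1.64 and 1.77 in the chronic arrays, against 1.77 to 2.66 in wild type. Its highest leukemia value, 2.49, was in exponential array 5, the array with high Trbv1, and did not pass the wild-type range. All 3 chronic arrays lay below the wild-type arrays in this row, the nearest by less than 0.01 log2 units. The second row of Trav14-1, not used here, differed. In it exponential array 5 had the lowest value of all arrays, 1.353. Chronic array 1 was at 1.954 there, against 1.559 to 1.935 in wild type.

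Trav13-5 was at 2.52 to 3.48 in the exponential arrays and at 2.32 to 2.87 in the chronic arrays, against 2.79 to 3.12 in wild type. Trav12-2 was at 1.40 to 2.09 in the exponential arrays and at 1.46 to 1.57 in the chronic arrays, against 1.60 to 1.80 in wild type. Trav7d-4 was at 1.21 to 1.93 in the exponential arrays and at 1.45 to 1.92 in the chronic arrays, against 1.69 to 1.86 in wild type. These 3 alpha segments overlapped with wild type in both phases, except for Trav12-2 in the chronic phase, and none exceeded it by more than 0.35 log2 units in any array.

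At least 7 of the 8 leukemia arrays lay below every wild-type array for 3 of the 9 segments (Trav19, Trbv1 and Trdv2-2), beside 4.57% of all genes. A single leukemia array held 5 to 8 of the 9 segments below every wild-type array, where 24.2 to 29.9% of all genes lay so. A pattern looked for after these values were seen, 7 arrays below every wild-type array and 1 that exceeded them all 4-fold or more, was met by 8 genes, or 0.0401% of all. They were Trav19 and Trbv1, the immunoglobulin constant gene Ighg3, the chemokine receptor gene Ccr4, the kit ligand gene Kitl, the lectin receptor gene Klri2, Chn2 and Timp2.

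The group comparisons asked which segments differed between the phases and wild type as a whole. In the chronic phase against wild type, limma called 1 segment, Trbv1, which averaged 2.92 ± 0.13 in the chronic arrays and 4.01 ± 0.21 in wild type (SD, n = 3 each) and so fell by 1.10 log2 units (SE 0.15, adjusted p = 0.0344 over all genes). All 3 chronic arrays lay below all wild-type arrays. Over all genes 0.316% were called lower and 0.14% higher. At an unadjusted p under 0.05 there were 3 segments, with Trav19 (difference of -0.70 log2 units, SE 0.17, adjusted p = 0.164) and Trgv1 beside Trbv1, where 11.2% of all genes reached this p. The methods' t-test gave 2 segments and 623 genes at its own, unadjusted threshold. The limma call of Trbv1 did not hold without any 1 of the 6 arrays (adjusted p = 0.0538 to 0.129) or in 1 fit over all groups (0.797). Trbv1 was also not called by the methods' t-test after Benjamini-Hochberg (0.319) or with every row of the array tested. Without chronic array 3, Trgv1 was called instead, lower by 2.14 log2 units (adjusted p = 0.0167), against a difference of -1.37 (SE 0.59, adjusted p = 0.445) with all arrays.

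In the exponential phase against wild type, limma called none of the 9 segments, beside 0.281% of all genes called lower and 0.135% higher. At an unadjusted p under 0.05 there were 2 segments, Trav7n-5 (difference of -0.52 log2 units, SE 0.11, adjusted p = 0.107) and Trdv2-2 (-0.45, SE 0.14, adjusted p = 0.270), where 9.78% of all genes reached this p. The methods' t-test gave 0 segments and 477 genes at its own threshold. Trav19 averaged 3.31 ± 2.97 in the exponential arrays (SD, n = 5) and 2.65 ± 0.29 in wild type (SD, n = 3), a difference of 0.66 log2 units (SE 1.42, adjusted p = 0.938). Trbv1 averaged 4.02 ± 2.28 in the exponential arrays and 4.01 ± 0.21 in wild type (difference 0.01, SE 1.09, adjusted p = 0.999), and Trgv1 3.67 ± 3.17 in the exponential arrays and 5.34 ± 0.29 in wild type (difference -1.67, SE 1.51, adjusted p = 0.816). For these 3 segments the mean of the exponential phase fell between 1 high and 4 low arrays, where no array lay.

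Single arrays decided these 2 last values. Without exponential array 4, Trgv1 was called lower in the exponential phase (by limma, difference of -3.08 log2 units, adjusted p = 0.000424). Without exponential array 5, Trbv1 was called lower (-1.01 log2 units, adjusted p = 0.0374). Trav19 turned to a difference of -0.67 log2 units without exponential array 2 and was not called (adjusted p = 0.174).

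Over all 8 leukemias against wild type, limma called none of the segments, where 0.441% of all genes were called lower and 0.281% higher. At an unadjusted p under 0.05 there was 1 segment, Trdv2-2 (-0.42 log2 units, SE 0.12, adjusted p = 0.178), where 10.6% of all genes reached this p. The methods' t-test gave 0 segments and 543 genes at its own threshold. Without exponential array 5 Trbv1 was called lower (-1.05 log2 units, adjusted p = 0.00196), and without exponential array 2 Trav19 (-0.68, adjusted p = 0.0347). The median difference of the 9 segments was -0.18 log2 units over all leukemias, -0.19 for the exponential and -0.38 for the chronic phase, beside medians within 0.01 of 0 over all genes. These comparisons share the wild-type arrays.

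Between exponential and chronic phase no segment was called, nor was any gene (0% higher and 0% lower, limma). At an unadjusted p under 0.05 there was 1 segment, Trav7n-5, which averaged 1.77 ± 0.16 in the exponential arrays (SD, n = 5) and 2.68 ± 0.75 in the chronic arrays (SD, n = 3), a difference of -0.91 log2 units (SE 0.28, adjusted p = 0.765), where 6.25% of all genes reached this p. The methods' t-test gave 1 segment and 123 genes at its unadjusted threshold and 0 genes after Benjamini-Hochberg.

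A further 29 rows of the array carry several symbols that include a variable segment, 25 of the alpha, 1 of the beta and 3 of the gamma locus. No segment is named from them, and they are numbered here within their locus. In 5 of the 29 rows at least 1 leukemia array exceeded the highest wild-type array 4-fold or more, beside 1.89% of the 1321 rows with several symbols, and at least 7 of 8 leukemia arrays lay below every wild-type array in 12, beside 5.15%.

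Among these rows, 1 of another locus also passed the 4-fold line in each of the 3 arrays named above. The rows were picked for passing it, and pairing of receptor chains was not measured. Beta row 1 was at 5.24 in exponential array 2, the array with high Trav19, and between 1.42 and 1.89 in the other leukemia arrays, against 1.80 to 2.71 in wild type, while Trbv1 itself was at 3.03 in that array. Alpha row 15 was at 5.92 in exponential array 5, the array with high Trbv1, and at 2.00 to 3.24 in the other leukemia arrays, against 3.16 to 3.72 in wild type. Alpha row 22 was at 7.37 in exponential array 4, the array with high Trgv1, and at 2.27 to 3.44 in the other leukemia arrays, against 2.87 to 3.50 in wild type. Each of these 3 exponential arrays thus exceeded every wild-type array 4-fold or more in rows of 2 loci.

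In the remaining arrays the row farthest above wild type was closer to it. In exponential array 3 it was alpha row 5, at 6.30, against 4.25 to 5.67 in wild type, while the other leukemia arrays lay between 2.32 and 3.05 in this row. In chronic array 2 it was alpha row 9, at 6.72, against 4.42 to 5.66 in wild type, while the other leukemia arrays lay between 2.51 and 3.34. In exponential array 1, chronic array 1 and chronic array 3 the farthest rows exceeded the highest wild-type array 1.28-fold, 1.47-fold and 2.04-fold. In chronic array 3 this was Trav7n-5. Only Trbv1 and beta row 1 stand for the beta locus here, which has 35 variable segments in the RefSeq gene table. A high segment that has no row would not be seen.

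**Figure D2:**
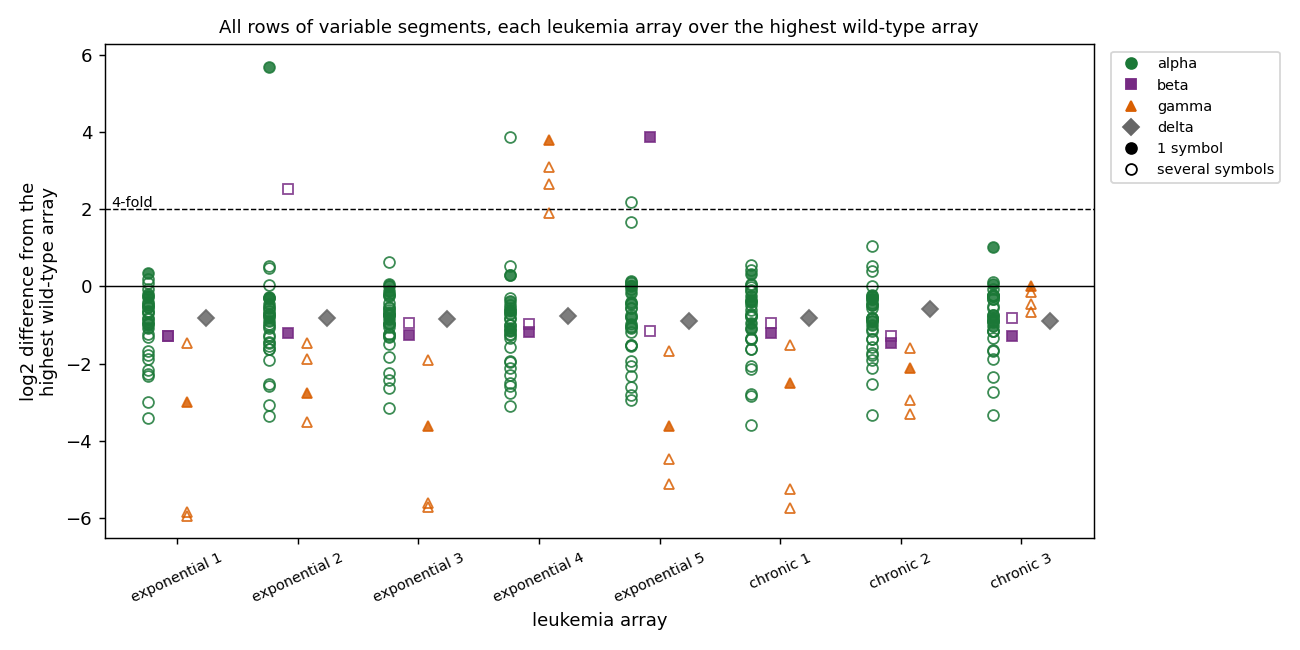
Log2 difference (y axis) of each leukemia array (x axis) from the highest wild-type array for all 38 rows of variable segments, by locus (colour and shape), filled for a single symbol and open for several symbols, with a solid line at the highest wild-type array and a dashed line 4-fold higher. Only exponential arrays 2, 4 and 5 have rows above the dashed line. Most rows of every array lie below 0, but so do most of all genes. In each leukemia array only 24.6 to 32% of all genes exceed every wild-type array.

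The gamma rows moved together with Trgv1. In exponential array 4 they were at 6.34, 9.70 and 10.55 for gamma rows 1, 2 and 3, where the highest wild-type arrays had 3.24, 7.80 and 7.90. Chronic array 3, which was level with wild type for Trgv1, had 2.59, 7.65 and 7.44 in these rows and lay within the wild-type range of each. All 6 other leukemia arrays lay below every wild-type array in all 3 rows. Among them, exponential array 2 and chronic array 2 were the highest in gamma rows 2 and 3, at 5.92 and 4.40 in exponential array 2 and at 4.85 and 4.60 in chronic array 2.

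**Figure D3:**
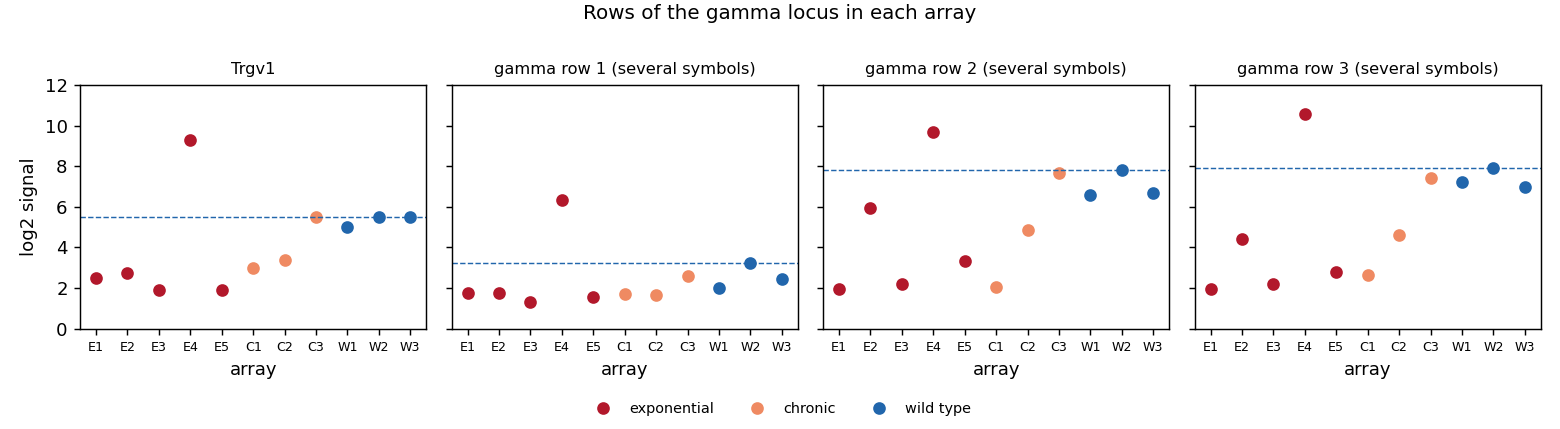
Log2 signal (y axis) of Trgv1 and of the 3 gamma rows with several symbols in each array (x axis: E, exponential phase; C, chronic phase; W, wild-type pools), with a dashed line at the highest wild-type array. E4 is above this line in all 4 rows, C3 lies at the level of the wild-type pools, and the other 6 leukemia arrays lie below all 3 pools.

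In the RefSeq gene table (assembly GRCm38.p6) all 9 symbols matched a variable segment. In order of position, Trav19 is number 126 and Trdv2-2 number 132 of 136 segments of the alpha and delta locus, Trbv1 is number 1 of 35 of the beta locus and Trgv1 number 7 of 7 of the gamma locus. The other 5 alpha segments lie at numbers 14 to 123.

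The invariant partners of the receptor did not cross the 4-fold line in any array. The CD3 chains carry the signal of every T-cell receptor into the cell. None of the 4 measured CD3 genes (Cd3d, Cd3e, Cd3g and Cd247) was called in any of the 4 comparisons, beside 0 to 0.441% of all genes per direction. Their median was 7.29 to 7.52 in the exponential arrays and 6.71 to 7.65 in the chronic arrays, against 7.40 to 7.95 in wild type. Cd247, the zeta chain, was at 6.90 in exponential array 4 and at 5.46 to 5.94 in the other exponential arrays, against 5.51 to 5.61 in wild type. The constant and joining segments of the receptor had no row with a single symbol.

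**Figure D4:**
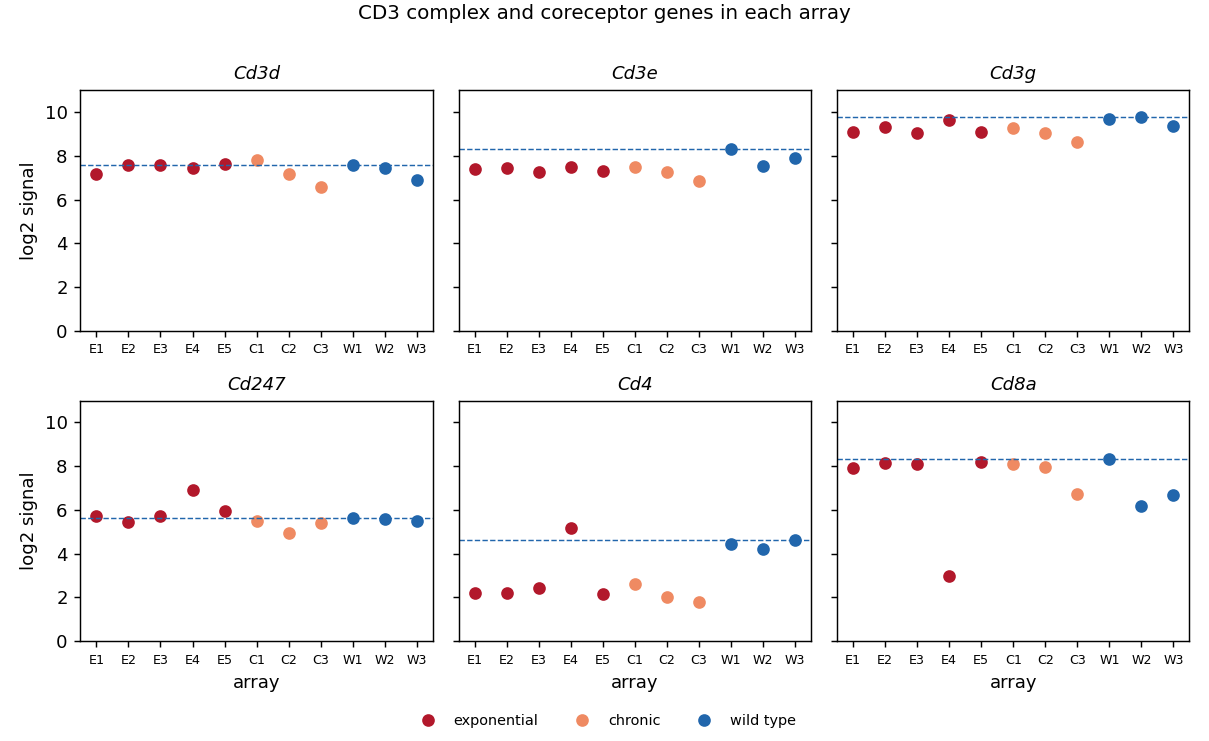
Log2 signal (y axis) of the 4 CD3 genes and the coreceptor genes Cd4 and Cd8a in each array (x axis: E, exponential phase; C, chronic phase; W, wild-type pools), with a dashed line at the highest wild-type array. No CD3 gene lies 4-fold above the dashed line in any array, and E4 departs from the other exponential arrays with Cd8a at 2.96 and Cd4 at 5.18.

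Cd4 was lower in the chronic arrays than in wild type, by 2.29 log2 units (limma, SE 0.22, adjusted p = 0.0122). This call was lost without any 1 of the wild-type arrays (adjusted p = 0.0567 to 0.0697). Cd4 was at 1.79 to 2.59 in the chronic arrays and at 2.15 to 2.44 in exponential arrays 1, 2, 3 and 5, against 4.21 to 4.62 in wild type. With array 4 at 5.18, it was not called in the exponential phase (adjusted p = 0.442). The CD8 enrichment of the leukemia arrays cannot be told apart from genotype here. Cd8a and Cd8b1 were not called in any comparison. Cd8b1 was at 4.33 in exponential array 4 and at 8.37 to 9.21 in the other exponential arrays, against 7.21 to 8.38 in wild type. Themis, a signaling adaptor of maturing T-cells, was at 3.24 in exponential array 4 and at 7.06 to 7.90 in the other exponential arrays, against 6.64 to 7.31 in wild type.

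Variable segments are joined by the RAG recombinase, with the terminal transferase Dntt adding bases at the joints and the non-homologous end-joining factors closing them. Rag1, Rag2, Dntt and the pre-receptor alpha chain Ptcra, the genes of immature T-cells, lay at or below 2.61 in all 11 arrays. Of 12 measured recombination and pre-receptor genes, 0 were called in the chronic phase, in the exponential phase or between the phases. Of all genes 0 to 0.316% were called there per direction. Over all leukemias 1 of the 12 was called higher, beside 0.281% of all genes. This was Xrcc6, which encodes the Ku70 subunit of end joining, at 3.72 to 4.24 in the leukemia arrays, against 2.94 to 3.36 in wild type (difference 0.84 log2 units, SE 0.14, adjusted p = 0.0133 by limma). It was not called without wild-type array 1 (adjusted p = 0.100) or 2 (0.0501).

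Of the 18 measured genes of proximal receptor signaling, 0 were called in the other 3 comparisons, beside 0 to 0.316% of all genes per direction. Over all leukemias 1 was called lower, beside 0.441% of all genes. It was Lcp2, which encodes the adaptor SLP-76, at 6.31 to 7.35 in the leukemia arrays, against 7.72 to 8.24 in wild type (difference -1.17 log2 units, SE 0.18, adjusted p = 0.0117 by limma). It was not called without wild-type array 1 (adjusted p = 0.0881). Of the 6 measured gamma-delta T-cell genes none was called in any comparison, beside 0 to 0.441% of all genes per direction. In exponential array 4, the array with high Trgv1, these genes went both ways. The scavenger receptor gene Cd163l1 was at 3.48, against 2.51 to 2.66 in wild type. The transcription factor gene Sox13 was at 3.25, against 2.59 to 3.16, and Il17a at 2.28, against 2.01 to 2.15. Below every wild-type array lay Blk, at 2.12 against 2.32 to 2.86, and Il23r, at 1.67 against 1.99 to 2.29. Zbtb16, at 2.31, lay within the wild-type range. The median of the 6 genes in this array was 2.29, against 2.30 to 2.52 in wild type. Cd163l1 was highest in chronic array 1, at 5.17, where Trgv1 was at 3.01, and was at 3.24 and 3.32 in exponential arrays 2 and 3.

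For the 3 segments that spanned at least 2 log2 units, the genes most like them over the 11 arrays were sought among the 781 other genes that also spanned at least 2. For Trav19 these were the killer-cell lectin receptor genes Klri2 (r = 0.992) and Klra5 (r = 0.969) and the gene 5830411N06Rik (r = 0.970), at 7.10, 3.64 and 5.76 in exponential array 2. Without that array r was 0.738, 0.115 and 0.056. For Trbv1 they were Oas2, Ccnt1 and Pglyrp1 (r = 0.845, 0.801 and 0.792), and without exponential array 5 r was -0.379, 0.639 and -0.071. For Trgv1 they were Slc27a6, Ccnb2 and Adk (r = 0.917, 0.895 and 0.890), and without exponential array 4 r was 0.887, 0.729 and 0.784. The genes were picked for a high r, and all values share the same normalization.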

How the data were processed

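The authors deposited log2 values of 11 arrays, background-corrected by RMA and quantile-normalized with the affy package of R per the study's methods. Its version and the genome build are not given in the sources used here. The log base was judged from the range of the values. No detection calls were used, so the level of background is unknown, and precision is limited by the number of arrays.

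Of 34760 rows, 21640 carried 1 symbol, 1321 several and 11799 none. Rows with 1 symbol were used, and of several rows of a gene (Trav14-1 has 2) the one with the highest mean was kept, which left 19937 genes. Separate fits were made for the comparisons, using lmFit and eBayes of limma 3.58.1 (R 4.3.3), as the study analysed each phase separately against controls. Benjamini-Hochberg adjustment ran over all 19937 genes. A call needed a fold of 1.5 or more and an adjusted p under 0.05. The lines 4-fold above the highest or below the lowest wild-type array are descriptions without a test. The p-values reflect only the spread among these arrays, which may be technical.

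All segments are named, as are the genes of the receptor lists that the text describes, and for each segment spanning at least 2 log2 units the 3 genes with the highest correlation. The members and lists were chosen with earlier results of these data known. The fits were tested on simulated data. The alternatives were a replicate block, 1 fit over all groups, a filter that left out the dimmest 30% of genes, cyclic loess, quantile normalization again, a variance trend with robust estimation, the methods' t-test, all rows, the mean of the rows of a gene, no fold threshold, a 2-fold line, the wild-type mean and each array left out in turn.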

Additional observations from a re-analysis of the deposited data

Results flagged for a closer look

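Within the exponential phase, single arrays stood far from the other 4 by Dixon's criterion in 17 of 63 genes and rows examined. For a single gene, chance alone meets this criterion in about 1 in 20 cases. The 63 share the same arrays, and some share a locus, so they are not independent and no excess over chance was tested. Array 4 gave 9 of the 17, array 5 gave 4, array 2 gave 3 and array 3 gave 1. Among the segments these were Trav19 in array 2 (8.63), Trbv1 in array 5 (8.10), Trgv1 in array 4 (9.31) and Trav14-1 in array 5 (2.49, within the wild-type range). The second row of Trav14-1, not used here, was at 1.353 in array 5.

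Among the rows with several symbols, array 4 was high in gamma rows 1 (6.34) and 3 (10.55) and alpha row 22 (7.37), and low in alpha row 19 (1.46). Array 5 was high in alpha rows 11 (6.92) and 15 (5.92), array 2 in alpha row 25 (4.41) and beta row 1 (5.24), and array 3 in alpha row 5 (6.30). Among other genes, array 4 was high in Cd4 (5.18) and in Hmgb2 (9.91), which encodes a chromatin protein that assists RAG cleavage, and low in Cd8a (2.96) and Cd8b1 (4.33).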

How the results depend on the processing

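The 3 segments past the upper line stayed past it with cyclic loess, repeated quantile normalization, the wild-type mean and the mean of rows, and a 2-fold line gave 4 values above and 7 below instead of 3 and 4. Leaving out single arrays gave 2 to 3 values above and 3 to 6 below. In the chronic phase against wild type (91 genes and 1 segment called), the variance trend gave 154 genes and 1 fit over all groups 0 segments. The methods' t-test gave 0 genes and 0 segments after Benjamini-Hochberg, and all rows gave 0 genes and 0 segments. Leaving out single arrays gave 8 to 108 genes and 0 to 1 segments. In the exponential phase against wild type (83 genes, 0 segments), the t-test gave 4 genes after Benjamini-Hochberg and all rows 45. Leaving out single arrays gave 16 to 221 genes and 0 to 1 segments there. Over all leukemias (144 genes, 0 segments) the t-test gave 46 genes after Benjamini-Hochberg, and leaving out single arrays 50 to 273 genes and 0 to 1 segments. Between the phases (0 genes) leaving out single arrays gave 0 to 2 genes. The cause of these changes was not tested.

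The deviations of same-numbered arrays of different groups from their group means correlated at -0.037 to 0.180. Differently numbered arrays were not read beside them, so whether same-numbered arrays share more than a number was not tested. With the replicate block 139 genes and 2 segments (Trbv1 and Trgv1, both lower) were called in the exponential phase. Over all leukemias 264 genes and 1 segment (Trbv1, lower) were called with it. Exponential arrays 4 and 5 have no same-numbered partner, so with the block they add nothing to the difference from wild type. The filter on dim genes kept 5 of the 9 segments. Dim rows limit what can be said of Trav12-2, Trav7d-4, Trav14-1 and Trdv2-2. Low values of other segments also lay below the median of all rows, 2.30, and share this limit. Among them were Trav19 in 7 leukemia arrays, Trav7n-5 in the exponential arrays and Trgv1 in exponential arrays 3 and 5.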
